A study of Oryctolagus cuniculus with 12 samples.

Results

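Glycolysis and the pentose phosphate pathway were followed in the rabbit cornea through 36 named genes, chosen by gene name only: glucose uptake, the steps from hexokinase to pyruvate kinase, lactate production and export, the switch that lets pyruvate into mitochondria, the control of fructose bisphosphate, and the pentose phosphate branch. Of these, 33 were listed by name among the 29076 genes of the deposited table. SLC2A3, PFKL and TALDO1 were not listed by that name, and TALDO1 was not analysed here. The study holds 12 RNA sequencing libraries of rabbit cornea, 3 in each of 4 groups: Ctrl, BL, which the labels spell out as blue light, and GL and RL, which they do not spell out. Per the labels every rabbit was 6 months old and fed a normal diet. The text of 6 weeks of light exposure stands on every library, Ctrl included; its wavelength and intensity were not given in the sources used here. No genotype or strain is named, and nothing states that each library is 1 animal, so p-values reflect how much these samples vary, part of which may be technical.

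Glycolysis splits glucose into pyruvate and yields ATP without oxygen. In the cornea, which has no blood vessels, much glucose taken up from the aqueous humour is turned into lactate, which is carried out of the cells together with protons. The pentose phosphate branch makes NADPH, which keeps glutathione reduced in a tissue exposed to light, and ribose for nucleotides. Its enzyme transketolase (TKT) moves carbon units between sugars and is also one of the corneal crystallins, soluble enzymes that corneal cells hold in far larger amounts than catalysis seems to need. The aldehyde dehydrogenases ALDH3A1 and ALDH1A1 are others of that kind.

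Levels are given in FPKM, the authors' fragments per kilobase of transcript, scaled to library size, which can be set side by side between genes. All 33 genes were detected in every library, and together they held 2.12 to 3.62% of all FPKM of a library. The lowest count was 20, in PDK4, where about 3.81 counts stand for 1 fragment, so its detection rests on few fragments. Of the 33, 5 averaged above 1000 FPKM, 7 between 100 and 1000, 14 between 10 and 100, and 7 below 10. LDHB, ENO1, LDHA, TKT and GAPDH alone made up 85.5 to 90.7% of the sum. By mean FPKM, LDHB ranked 3 among all genes listed, ENO1 18, LDHA 34, TKT 36 and GAPDH 41. The coefficient of variation over 12 libraries had a median of 22.2% for the 33 genes and 31.8% for all 18171 genes tested. It was lowest in TPI1 (6.21%) and highest in ALDOC (95.9%).

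**Figure D1:**
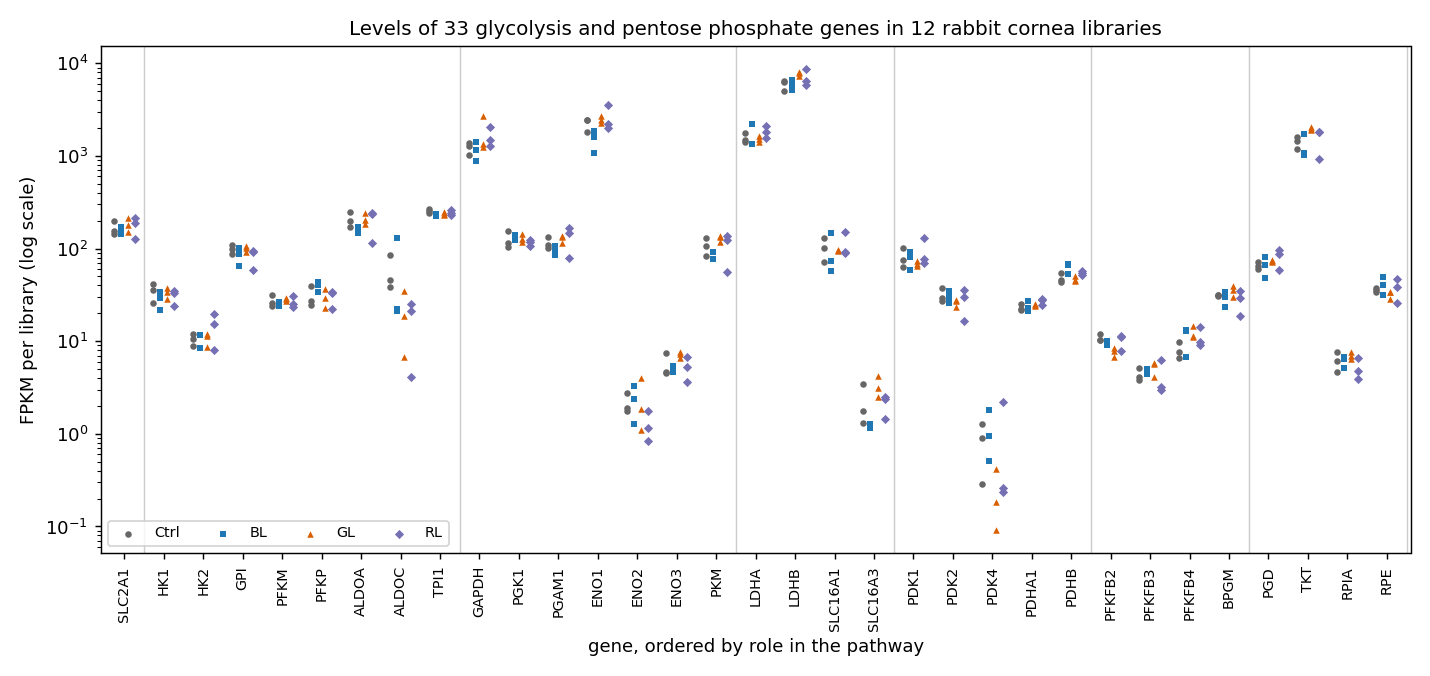
FPKM of each of the 33 genes in each library on a log axis, ordered by role in the pathway, with 1 point per library and a marker for each group. LDHB, ENO1, LDHA, TKT and GAPDH form the upper band at mean levels above 1000 FPKM, the points of most genes lie close together, and those of ALDOC and PDK4 are spread most widely.

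Total counts ran from 40.9 to 64.7 M (mega) per library, an estimated 10.7 to 17.0 M fragments. The libraries fell into 2 sets by their number of weakly detected genes: all BL libraries, Ctrl 1 and RL 1 had 2389 to 2563 genes with counts of 1 to 20, and the other 7 had 767 to 1461. This split overlaps with the groups, since BL lies wholly in the set of 5 and GL wholly in the set of 7. Summed FPKM of 9 corneal epithelial markers (such as KRT12 and PAX6) lay at 11940 to 16515 in Ctrl, 12763 to 15540 in BL, 17871 to 18613 in GL and 14253 to 20263 in RL. That of 8 keratocyte markers (such as KERA and LUM) lay at 16068 to 20999, 18635 to 21996, 20130 to 20665 and 15164 to 21203. Lens markers, 12 crystallin and fibre cell genes, were also present, at 5598 to 8711, 1820 to 16490, 612 to 3320 and 403 to 3088. No marker of these 3 lists that was listed stood at 0 in every library. In whole tissue, fewer cells of a type and less RNA per cell cannot be told apart.

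TKT was an abundant transcript in every library, at a mean level close to those of LDHA and GAPDH. It lies on chromosome 9 of the deposited table, from 20184712 to 20207377 on the minus strand. Its FPKM was 1202, 1616 and 1462 in Ctrl 1 to 3, 1072, 1029 and 1705 in BL, 1935, 1888 and 2032 in GL, and 935, 1792 and 1832 in RL. The 3 GL libraries stood above all 9 others, while BL 1, BL 2 and RL 1 were the lowest. BL 3 lay above all Ctrl libraries and below RL 2 and RL 3. Group means were 1427 ± 209 in Ctrl, 1269 ± 378 in BL, 1952 ± 73.2 in GL and 1519 ± 507 in RL (SD, n = 3 each). Against Ctrl, the log2 difference was −0.17 ± 0.27 (SE) in BL, 0.50 ± 0.28 in GL and 0.16 ± 0.27 in RL (edgeR quasi-likelihood test, Benjamini-Hochberg adjusted p = 1, 0.622 and 1). PGD, which makes NADPH from 6-phosphogluconate, stood at 65.7 ± 6.29, 65.2 ± 16.3, 72.9 ± 1.68 and 80.2 ± 19.6 FPKM in Ctrl, BL, GL and RL.

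The sugar phosphate isomerases of the same branch were far lower than TKT. RPE, the ribulose phosphate epimerase, stood at 35.7 ± 1.52, 40.2 ± 9.00, 32.1 ± 3.28 and 37.1 ± 10.8 FPKM in Ctrl, BL, GL and RL. RPIA, which isomerises ribose phosphate, stood at 6.14 ± 1.50, 6.11 ± 0.880, 6.97 ± 0.579 and 5.12 ± 1.41. None of these 3 enzymes beside TKT had an unadjusted p below 0.05 in any comparison.

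Of 8 corneal crystallins and other abundant soluble enzymes looked up, 7 were listed, with ENO1, LDHA, TKT and GAPDH among them. By edgeR 0 passed the adjusted threshold in any comparison. An unadjusted p below 0.05 was reached by 3 of 7 in BL minus GL (42.9%, against 14.9% of all genes). In BL minus RL it was reached by 2 (28.6% against 5.14%), and all of these were lower in BL. For any difference it was reached by 1 (14.3% against 7.79%), and in the other comparisons by 0. No term for the library set was in this fit, and in BL and GL the light group and the set cannot be told apart. The 3 in BL minus GL were ENO1, TKT and GAPDH, which are also counted among the 33. GAPDH did not keep an unadjusted p below 0.05 in BL minus GL with its annotated copies, described below, summed. In BL minus RL it had one only with copies summed. There the log2 difference was −0.49 ± 0.21 summed and −0.54 ± 0.30 alone (edgeR unadjusted p = 0.0325 and 0.0982). ALDH3A1 had no entry by that name and was not analysed here. ALDH1A1, the retinal dehydrogenase, stood at 3175 ± 483, 3838 ± 529, 3343 ± 201 and 3370 ± 764 FPKM in Ctrl, BL, GL and RL, above TKT in every library. PRDX6, a peroxiredoxin, stood at 243 ± 29.6, 219 ± 22.1, 260 ± 31.6 and 299.5 ± 54.4 FPKM. GSTP1, a glutathione transferase, stood at 458 ± 94.9, 490.5 ± 56.1, 583 ± 87.6 and 609 ± 257.

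Lactate dehydrogenase was carried mainly by LDHB, the heart-type subunit, with LDHA, the muscle-type subunit that favours lactate formation, at a lower level. LDHA lies on an unplaced sequence. It stood at 1782, 1481 and 1414 FPKM in Ctrl 1 to 3, 1341, 2215 and 1336 in BL, 1643, 1404 and 1524 in GL, and 2121, 1827 and 1568 in RL. The groups overlapped throughout, and the highest library, BL 2, lay in the same group as the lowest. The log2 differences from Ctrl were 0.07 ± 0.21 in BL, 0.02 ± 0.21 in GL and 0.30 ± 0.21 in RL (edgeR adjusted p = 1, 0.992 and 1).

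LDHB stood at 6223, 6374 and 4988 FPKM in Ctrl, 5119, 6560 and 5690 in BL, 8046, 7217 and 7824 in GL, and 5882, 6406 and 8674 in RL. All GL libraries were above all Ctrl and BL libraries, and the highest library of all was RL 3. Its log2 difference in GL minus Ctrl was 0.44 ± 0.19, with an unadjusted p below 0.05 that did not pass adjustment (edgeR adjusted p = 0.610), and 0.23 with log2 library size as a covariate. LDHA made up 21.1 ± 1.92% of the summed FPKM of both subunits in Ctrl, 21.7 ± 3.21% in BL, 16.5 ± 0.380% in GL and 21.3 ± 5.64% in RL (exact permutation test over all partitions of the libraries, p = 0.276, 0.322 adjusted over 7 shares). RL held both the highest share, 26.5%, and the lowest, 15.3%.

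Lactate leaves cells through the monocarboxylate transporters. SLC16A1 was the main one, at 101 ± 29.4, 92.2 ± 47.4, 96.2 ± 1.11 and 111 ± 34.2 FPKM in Ctrl, BL, GL and RL. BL 1 to 3 stood at 56.6, 146 and 73.8, and Ctrl 2, at 71.3, lay below BL 3. SLC16A3, the transporter of strongly glycolytic cells, was scarce, at 1.77, 1.30 and 3.41 FPKM in Ctrl, 1.27, 1.16 and 1.29 in BL, 2.50, 3.12 and 4.24 in GL, and 1.45, 2.36 and 2.50 in RL. The 3 BL libraries lay below the 9 others, with Ctrl 2 closest at 1.30. The log2 difference of SLC16A3 in BL minus Ctrl was −0.80 ± 0.43 (edgeR adjusted p = 1), −0.31 without Ctrl 3 and −0.39 with the library set as a covariate, and the lowest count of the gene was 84. BSG, the chaperone that carries these transporters to the membrane, was listed at 0.0001 FPKM, the value the table gives for a count of 0, in 10 libraries, and at 0.279 in BL 1 and 0.125 in BL 3. These values hold for the entry of that name only. Whether reads of BSG were counted under another entry was not tested, so they do not show that the transcript is absent.

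No gene of glucose entry or of the upper steps passed the adjusted threshold in any comparison. SLC2A1, the basal glucose transporter of the corneal epithelium, stood at 165 ± 28.6, 161 ± 14.1, 182 ± 30.3 and 175 ± 43.7 FPKM in Ctrl, BL, GL and RL. HK1, the housekeeping hexokinase, stood at 34.2 ± 7.81, 28.4 ± 6.13, 33.5 ± 4.45 and 30.6 ± 5.63, and HK2, the inducible one, at 10.5 ± 1.57, 9.50 ± 1.94, 10.8 ± 1.81 and 14.3 ± 5.95. The wide spread of HK2 in RL came from values of 7.93, 15.2 and 19.7. GPI, which isomerises glucose phosphate, stood at 98.3 ± 10.6, 84.1 ± 17.8, 99.8 ± 7.81 and 81.8 ± 20.1 FPKM. The phosphofructokinase subunits, which set the pace of glycolysis, were near each other: PFKM at 27.0 ± 3.96, 25.3 ± 1.42, 28.4 ± 1.22 and 26.6 ± 3.90, and PFKP at 30.3 ± 8.24, 39.2 ± 4.97, 29.6 ± 7.14 and 29.7 ± 6.48.

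TPI1, triose phosphate isomerase, was the steadiest of the 33, at 255 ± 14.9, 228 ± 8.58, 239 ± 8.62 and 243 ± 17.3 FPKM. ALDOA, the main aldolase, stood at 206 ± 39.7, 156 ± 13.8, 209 ± 27.5 and 198 ± 71.3. ALDOC, the aldolase of nervous tissue, was the most variable gene: it stood at 38.02, 85.0 and 45.6 FPKM in Ctrl, 131, 22.2 and 21.4 in BL, 6.68, 18.6 and 34.8 in GL, and 4.14, 25.2 and 21.1 in RL. BL 1 was highest and RL 1 lowest, and the Ctrl libraries lay above those of GL and RL. The log2 difference was −1.43 ± 0.80 in GL minus Ctrl and −1.66 ± 0.81 in RL minus Ctrl (edgeR adjusted p = 0.627 and 1). Summed lens markers were likewise highest in BL 1 (16490 FPKM) and lowest in RL 1 (403 FPKM). In each group the library with the most ALDOC (Ctrl 2, BL 1, GL 3 and RL 2) was also the one with the highest sum of lens markers, at 8711, 16490, 3320 and 3088 FPKM, and of 12 retina markers, at 50.8, 65.5, 238 and 17.96 FPKM. Their part in the ALDOC values was not tested.

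The lower stage of glycolysis turns triose phosphate into pyruvate, and it held ENO1 and GAPDH among the 5 most abundant of the 33. ENO1, the alpha enolase of most tissues, stood at 2452, 2418 and 1808 FPKM in Ctrl, 1084, 1855 and 1597 in BL, 2452, 2291 and 2720 in GL, and 2003, 2210 and 3546 in RL. BL held 2 libraries below all of Ctrl, and all 3 below every library of GL and RL. The log2 difference of ENO1 was −0.56 ± 0.26 in BL minus Ctrl, 0.21 ± 0.26 in GL minus Ctrl and 0.29 ± 0.26 in RL minus Ctrl (edgeR adjusted p = 1, 0.856 and 1). In BL minus Ctrl it was −0.35 without BL 1 and −0.27 without the 3 libraries richest in retina markers (Ctrl 2, BL 1 and GL 3). For any difference among the 4 groups the adjusted p of ENO1 was 0.630, the smallest of the 33 genes.

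PGK1, the first step of glycolysis that yields ATP, stood at 125 ± 25.8, 129 ± 10.1, 130 ± 13.2 and 115 ± 8.78 FPKM in Ctrl, BL, GL and RL, and PGAM1, the phosphoglycerate mutase, at 115 ± 15.9, 95.8 ± 11.1, 129 ± 12.2 and 131 ± 45.2. PKM, pyruvate kinase, stood at 83.6, 130 and 106 FPKM in Ctrl, 77.1, 92.0 and 90.8 in BL, 138, 118 and 133 in GL, and 56.1, 138 and 124 in RL. Here RL 1 was the lowest library and RL 2 among the highest. The minor enolases were low: ENO3, the muscle form, stood at 5.52 ± 1.60, 5.02 ± 0.332, 7.15 ± 0.599 and 5.22 ± 1.59, and ENO2, the neuronal form, at 2.15 ± 0.543, 2.29 ± 0.985, 2.31 ± 1.50 and 1.25 ± 0.458.

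GAPDH, which oxidises glyceraldehyde phosphate, stood at 1279, 1372 and 1035 FPKM in Ctrl, 876, 1405 and 1165 in BL, 1241, 2728 and 1356 in GL, and 1491, 1274 and 2037 in RL. GL 2 stood above the other 11 libraries. The table lists 17 further entries annotated as copies of GAPDH, of which 6 averaged above 1 CPM (counts scaled to library size), and reads of near-identical copies may be divided between them. GAPDH itself held 30.5 to 42.6% of the family's summed CPM in 11 libraries and 72.2% in GL 2. In GL 2 GAPDH stood at 3624 CPM and its copies at 1397, against 1616 and 1820 for GAPDH and 2890 and 3200 for the copies in GL 1 and GL 3. The family sums of the 3 GL libraries were 4506, 5021 and 5020 CPM. With the copies summed, the log2 difference in GL minus Ctrl went from 0.58 ± 0.30 to 0.18 ± 0.20 (edgeR adjusted p = 0.617 and 0.841), so the level of GAPDH by itself is uncertain.

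LDHA likewise has 11 annotated copies, 5 of them above 1 CPM. LDHA held 76.0 to 95.2% of its family's sum, with the highest share in BL 1. LDHB held 98.6 to 98.9%, so its values rest little on how copies were counted. Of the 33 genes, 11 have such copies, and with copies summed none of the 33 passed the adjusted threshold in any comparison.

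**Figure D2:**
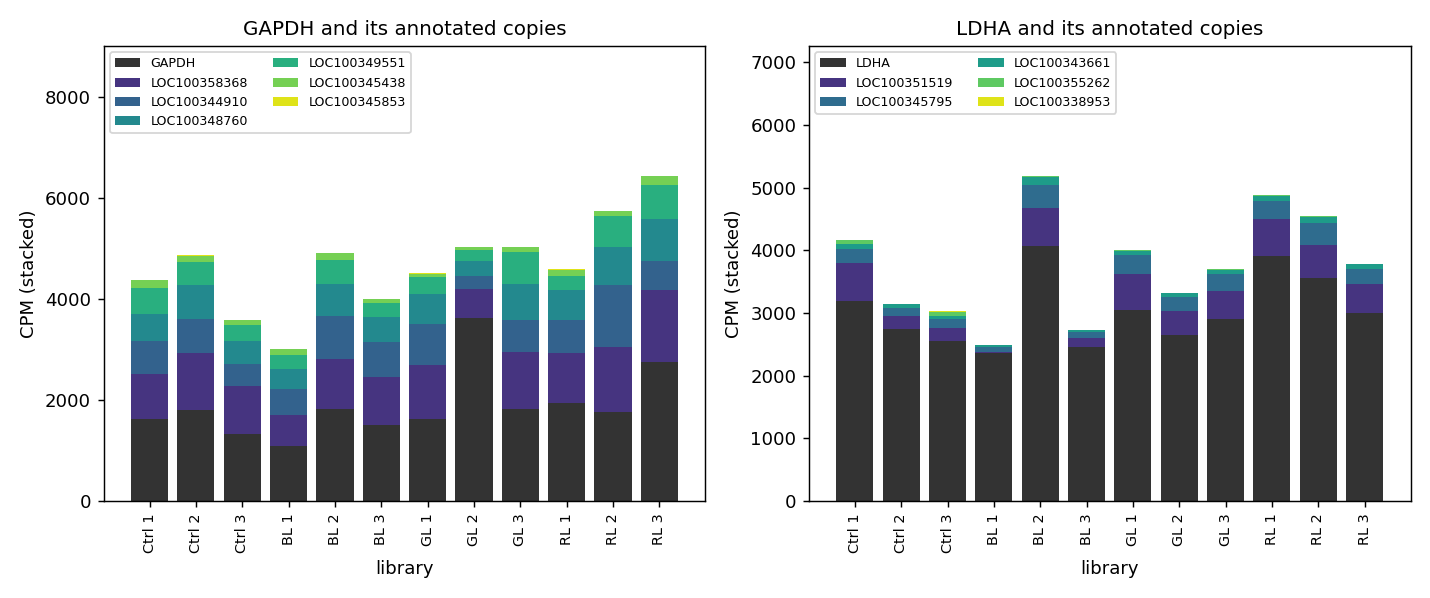
Stacked CPM per library of GAPDH (left) and LDHA (right) with their annotated copies above 1 CPM, from 0. GAPDH fills 72.2% of its bar in GL 2 and 30.5 to 42.6% in the 11 other libraries, while the whole bars of the 3 GL libraries are of like height.

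Pyruvate enters mitochondria through the pyruvate dehydrogenase complex, which the PDK kinases switch off. PDHB, the beta subunit of its first enzyme, stood at 54.9, 43.4 and 45.4 FPKM in Ctrl, 68.02, 66.2 and 52.7 in BL, 50.6, 44.3 and 46.3 in GL, and 57.2, 51.2 and 54.3 in RL. BL held the 2 highest libraries, and BL 3 overlapped with Ctrl. The log2 difference of PDHB in BL minus Ctrl was 0.37 ± 0.15 (edgeR adjusted p = 1). PDHA1, the alpha subunit, stood at 25.4, 22.2 and 21.8 FPKM in Ctrl, 21.2, 27.4 and 23.0 in BL, 23.8, 25.0 and 24.3 in GL, and 24.9, 28.9 and 27.6 in RL, and its groups overlapped with Ctrl. Its log2 difference in RL minus Ctrl was 0.30 ± 0.15 (edgeR adjusted p = 1).

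Among the kinases PDK1, a target of the hypoxia pathway, was the most abundant, at 79.9 ± 19.5, 76.99 ± 16.9, 68.7 ± 4.20 and 91.9 ± 32.2 FPKM in Ctrl, BL, GL and RL. PDK2 stood at 31.1 ± 5.55, 30.4 ± 4.55, 26.2 ± 2.36 and 27.3 ± 9.68. PDK4, the kinase induced by fasting, was near the detection limit at 0.826 ± 0.502, 1.09 ± 0.653, 0.229 ± 0.166 and 0.893 ± 1.12, and RL 2 alone stood at 2.18.

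Fructose 2,6-bisphosphate, the strongest activator of phosphofructokinase, is made and removed by the PFKFB enzymes. PFKFB2 stood at 10.3, 10.3 and 12.0 FPKM in Ctrl, 10.005, 9.77 and 9.20 in BL, 8.35, 7.88 and 6.78 in GL, and 11.1, 7.78 and 11.4 in RL. All 3 GL libraries were below all of Ctrl and BL, and RL 2 lay among them. The log2 difference of PFKFB2 in GL minus Ctrl was −0.45 ± 0.16 (edgeR adjusted p = 0.565), the smallest adjusted p of the 33 in that comparison. PFKFB4 stood at 9.77, 6.65 and 7.56 FPKM in Ctrl, 12.7, 6.81 and 13.05 in BL, 11.5, 14.7 and 11.2 in GL, and 9.74, 14.4 and 9.09 in RL. Its GL libraries were all above Ctrl, with a log2 difference of 0.69 ± 0.27 (edgeR adjusted p = 0.601), and 0.54 ± 0.27 in RL minus Ctrl (edgeR adjusted p = 1), where the groups overlapped and the value was 0.29 without RL 2. PFKFB3, the form with the highest kinase activity, stood at 4.33 ± 0.724, 4.80 ± 0.287, 5.19 ± 0.955 and 4.15 ± 1.86 FPKM. BPGM, which makes 2,3-bisphosphoglycerate, stood at 31.1 ± 0.478, 29.1 ± 5.35, 35.0 ± 4.39 and 27.5 ± 8.07.

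Across the light groups, none of the 33 genes passed an adjusted p of 0.05 in edgeR against Ctrl. In BL minus Ctrl 0 of 33 were called, where 0.0165% of all genes tested were, and 1 of 33 (PDHB) had an unadjusted p below 0.05, against 3.26% of all genes. The median log2 difference of the 33 was −0.05 and that of all genes 0.01. With the library set as a covariate that of the 33 was 0.09. BL lay wholly below Ctrl in 3 of the 33 (SLC16A3, PFKFB2 and TPI1), which is 9.09%, against 4.30% of all genes. DESeq2 and limma called 0 of the 33 in this comparison as well, where DESeq2 called 36 of all genes.

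In GL minus Ctrl 0 of 33 were called (0.0550% of all genes), and 3 had an unadjusted p below 0.05: LDHB and PFKFB4 in the higher direction and PFKFB2 in the lower. This is 9.09% of the 33, against 8.10% of all genes. The median log2 difference was 0.12 for the 33 and −0.02 for all genes. Of the 33, 25 values were above 0 and 8 below, where 48.2% of all genes were above 0. The median was 0.04 without GL 3, 0.21 without Ctrl 2 and −0.03 with log2 library size as a covariate. GL lay wholly above Ctrl in 3 (LDHB, PFKFB4 and TKT; 7.67% of all genes did) and wholly below in 2 (PFKFB2 and ALDOC; 10.8% of all genes did). All 7 genes of the lower stage of glycolysis had log2 differences above 0, with a median of 0.21, though none of these 7 had an unadjusted p below 0.05. They were read in the same libraries, so their shared direction is not 7 separate results.

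In RL minus Ctrl 0 of 33 were called (0.0110% of all genes), and 0 had an unadjusted p below 0.05, against 4.74% of all genes. The median log2 difference was 0.07, and 0.00 for all genes. That of the 33 was −0.01 without RL 3 and 0.21 without RL 1. RL lay wholly below Ctrl in 2 (ALDOC and ENO2), against 6.16% of all genes. In GL minus Ctrl and RL minus Ctrl, too, DESeq2 and limma called 0 of the 33, where DESeq2 called 183 and 85 of all genes. The 3 comparisons share the Ctrl libraries.

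**Figure D3:**
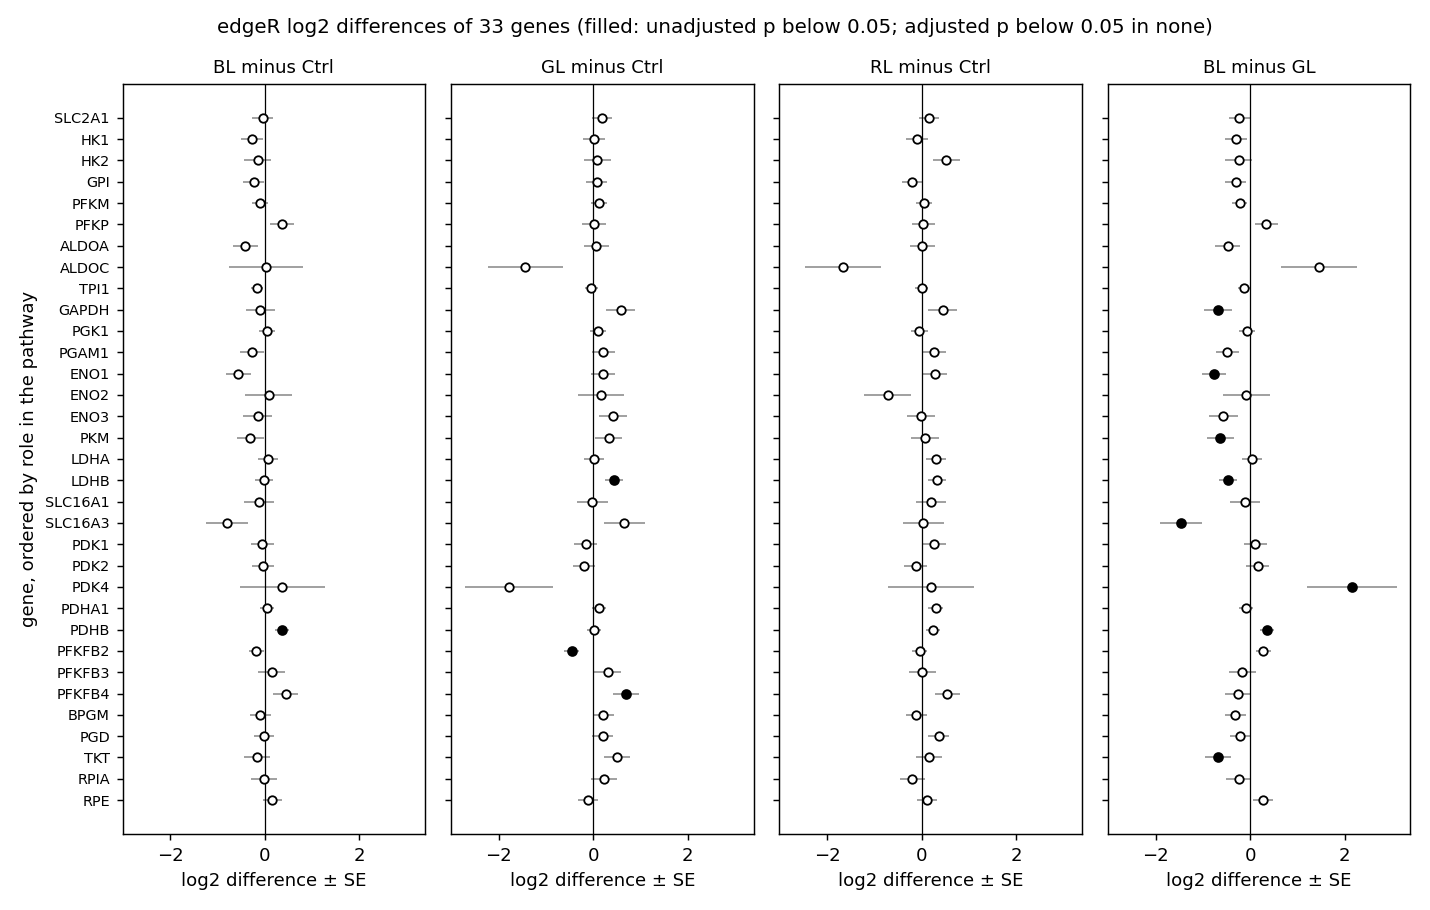
The log2 difference and its SE for each of the 33 genes in BL, GL and RL minus Ctrl and in BL minus GL, from 1 edgeR fit. Filled points have an unadjusted p below 0.05, none has an adjusted p below 0.05, and the points of the lower stage of glycolysis lie right of 0 in GL minus Ctrl and left of 0 in BL minus GL.

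Of the 3 comparisons between light groups, BL against GL had the most of the 33 genes with an unadjusted p below 0.05. In BL minus GL 0 of 33 were called in edgeR (0.0495% of all genes), with a smallest adjusted p of 0.254 for SLC16A3, whose log2 difference was −1.46 ± 0.44. DESeq2 called this gene alone of the 33, at an adjusted p of 0.0469, where it called 435 of all genes. In edgeR 8 of the 33, or 24.2%, had an unadjusted p below 0.05, against 14.9% of all genes: PKM, GAPDH, LDHB, SLC16A3, TKT and ENO1 were lower in BL, and PDK4 and PDHB higher. With annotated copies summed, the log2 difference of GAPDH went from −0.68 ± 0.31 to −0.29 ± 0.20 and that of PKM from −0.63 to −0.61, and neither kept an unadjusted p below 0.05. BL lay wholly below GL in 9 of the 33, or 27.3% (10.5% of all genes), and wholly above in 3, or 9.09% (16.5% of all genes). The median log2 difference was −0.22 for the 33 and 0.05 for all genes, and 53.4% of all genes were above 0. All 7 genes of the lower stage were below 0, with a median of −0.56, again in the same libraries.

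In BL minus RL 0 of 33 were called (0.0110% of all genes) and 2 had an unadjusted p below 0.05 (5.14% of all genes), HK2 and ENO1, both lower in BL. With annotated copies summed, GAPDH also had such a p there, at a log2 difference of −0.49 ± 0.21. In GL minus RL 0 of 33 were called (0.0715% of all genes) and 1 had an unadjusted p below 0.05 (8.60% of all genes), PFKFB2, lower in GL. For any difference among the 4 groups 0 of 33 were called (0.0605% of all genes) and 2 had an unadjusted p below 0.05 (7.79% of all genes), ENO1 and SLC16A3. DESeq2 and limma called 0 of the 33 in these 3 comparisons, where DESeq2 called 87, 225 and 308 of all genes.

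The split of libraries by weakly detected genes was read in the same 33 genes. With the set of 5 libraries and the group both as terms in edgeR, 0 of 33 were called for the set (0.00550% of all genes; smallest adjusted p = 0.0875) and 11 of 33, or 33.3%, had an unadjusted p below 0.05, against 19.1% of all genes. Of these 11, 9 were lower in the set of 5, and PDK1 and PDK2 were higher. PKM averaged 79.9 FPKM in the 5 libraries and 127 in the other 7, ALDOA 151 and 222, PGAM1 93.9 and 134, TKT 1189 and 1794, and PDK1 92.2 and 70.2. These means leave out the group term of the fit: PFKP, with a fitted log2 difference of −0.57, averaged 32.8 and 31.8 FPKM, and PDK4, with −2.18, averaged 0.757 and 0.760. The median log2 difference for the set was −0.24 for the 33 and 0.05 for all genes.

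With the set in the fit, the median of the 33 in BL minus GL moved from −0.22 to 0.03 and the log2 difference of TKT from −0.67 ± 0.28 to 0.02. ENO1 went from −0.77 to −0.58 and SLC16A3 from −1.46 to −0.86. With log2 library size in place of the set, TKT stood at −0.02 and ENO1 at −0.39. Only Ctrl and RL hold libraries of both sets, so that fit takes the size of the set from those 6 libraries. In both groups replicate 1 is the library in the set of 5, and TKT, PKM, ALDOA and PGAM1 were each lowest there. These genes were among those with the smallest unadjusted p for the set in edgeR, so this restates that fit and is not separate support. Other genes differed: ENO1 was highest of Ctrl in Ctrl 1 (2452 FPKM), and LDHA was highest of its group in Ctrl 1 (1782) and RL 1 (2121). The light group and the library set cannot be told apart in BL and GL.

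**Figure D4:**
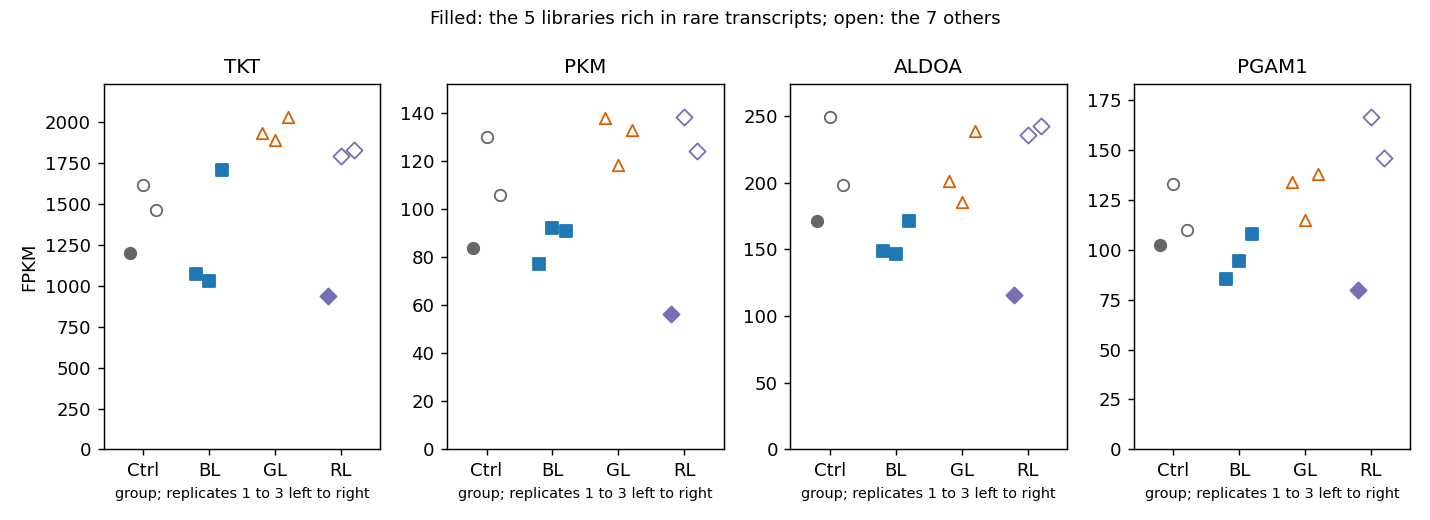
FPKM of TKT, PKM, ALDOA and PGAM1 in each library from 0, filled for the 5 libraries with 2389 to 2563 weakly detected genes and open for the 7 others. In Ctrl and RL the filled point of each gene is the lowest, all BL points are filled and all GL points are open, and BL 3 is the highest filled point for TKT. The genes shown were among those with the smallest unadjusted p for the set in edgeR.

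The levels of TKT and LDHA were also set against those of cell layer markers between libraries, on the log2 CPM scale. Over the 12 libraries TKT correlated with the mean of 8 keratocyte markers (Pearson r = 0.723, permutation p = 0.00811 and 0.0487 adjusted over 6 relations, Spearman rho = 0.573, permutation p = 0.0557). Without BL 1 and RL 2, the libraries furthest from the median of the markers, r was 0.646. Within the 7 libraries of the larger set r was 0.609 (permutation p = 0.157), so the relation was not shown within that set, and the set of 5 is too small for a value. On leaving out 1 library at a time it passed adjustment only without BL 2, BL 3 or RL 3. All these values share depth and library set.

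For the 9 epithelial markers r with TKT was 0.590 (rho = 0.559, permutation p = 0.0463 and 0.0626, BH-adjusted p of r = 0.0925), 0.433 without RL 2 and BL 1, and 0.491 in the 7 libraries. For the 12 lens markers it was −0.02 (rho = −0.06, permutation p = 0.943 and 0.852), −0.19 without RL 1 and BL 1, and −0.59 in the 7 libraries (permutation p = 0.167). LDHA correlated with epithelial markers at r = 0.366 (rho = 0.469, permutation p = 0.240 and 0.129), 0.0364 without RL 2 and BL 1, and 0.682 in the 7 libraries (permutation p = 0.0802). With keratocyte markers r was 0.09 (rho = 0.01, permutation p = 0.789 and 0.991), −0.49 without BL 1 and RL 2, and 0.450 in the 7 libraries (permutation p = 0.321). With lens markers it was −0.60 (rho = −0.54, permutation p = 0.0396 and 0.0754, BH-adjusted p of r = 0.0925). That last value weakened to −0.26 without RL 1 and BL 1, the libraries furthest from the median of the lens markers. It was −0.32 in the 7 libraries (permutation p = 0.462).

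Isozyme shares compare genes within a library, and none of the 7 passed the adjusted threshold. HK1 made up 75.8 ± 7.16% of hexokinase FPKM in Ctrl, 74.7 ± 4.81% in BL, 75.7 ± 1.77% in GL and 69.1 ± 6.47% in RL (exact permutation p = 0.437). PFKM made up 31.6 ± 1.15%, 29.1 ± 0.422%, 31.6 ± 2.37% and 33.9 ± 4.25% of phosphofructokinase (exact permutation p = 0.207), with PFKL taken from an entry whose description names the liver type. ALDOA made up 79.2 ± 4.04%, 76.3 ± 20.1%, 91.7 ± 4.79% and 93.0 ± 3.21% of aldolase (exact permutation p = 0.156). In BL its share was 53.1% in BL 1 and 86.9 and 88.9% in BL 2 and BL 3.

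The glucose transporter share had the smallest p of the 7. SLC2A1 made up 95.3, 96.3 and 96.8% of its sum with SLC2A3 in Ctrl, 96.4, 95.9 and 95.8% in BL, 93.7, 95.1 and 94.5% in GL, and 96.6, 96.4 and 96.2% in RL. All GL libraries were below all others. The exact permutation p was 0.0171, and 0.0907 adjusted over the 7 shares, so it did not pass. SLC2A3, the high-affinity transporter, was read from an entry whose description names it, and its mean FPKM was 6.62 in Ctrl, 6.66 in BL, 10.6 in GL and 6.64 in RL. ENO1 made up 99.2 to 99.8% of enolase FPKM in every library (exact permutation p = 0.0259, adjusted 0.0907, and adjusted 0.00273 without BL 2), and SLC16A1 95.7 to 99.2% of its sum with SLC16A3 (exact permutation p = 0.198, adjusted 0.290).

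**Figure D5:**
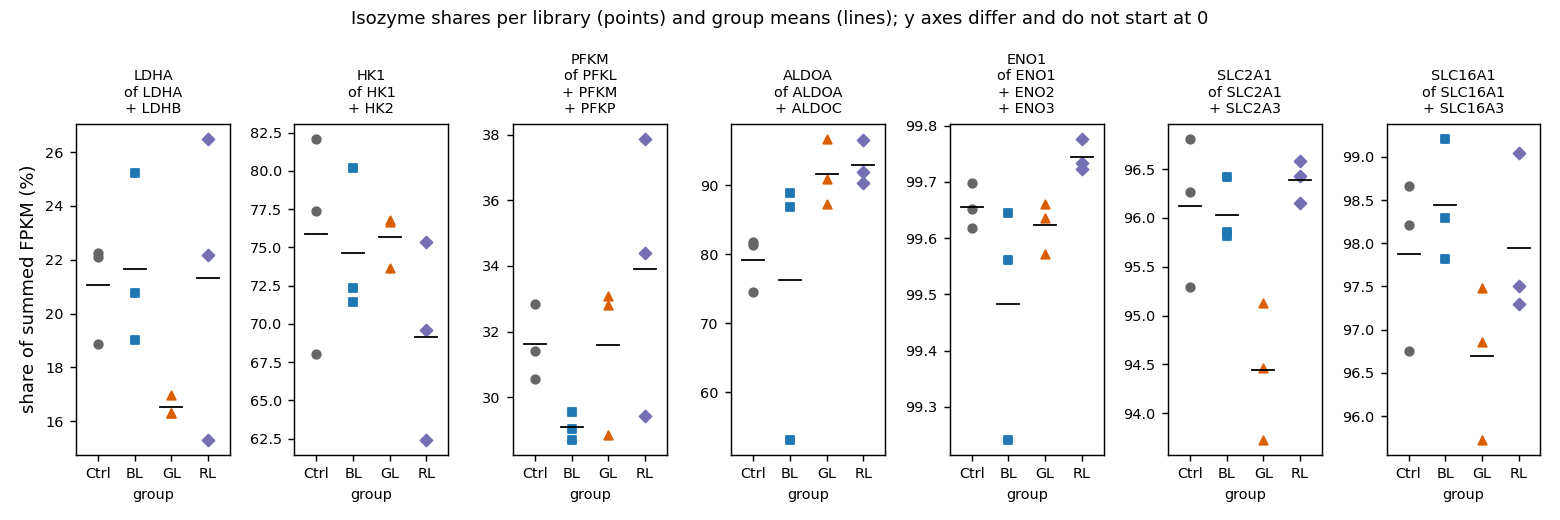
Share of each isozyme or transporter in the summed FPKM of its step, 1 point per library with a line at the group mean; axes differ and do not start at 0. SLC2A1 lies lowest in all 3 GL libraries (93.7 to 95.1%), and ALDOA in BL 1 stands at 53.1%, far below the other libraries.

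Beyond these 33, the pathway was read from 58 further genes of glucose handling (other kinases, gluconeogenesis, glycogen, the oxidative pentose phosphate steps, pyruvate transport and dehydrogenase subunits). Of these 54 were listed and 46 tested, and 0 were called by edgeR in any comparison. At an unadjusted p below 0.05 stood 1 of the 46 in BL minus Ctrl (2.17%, against 3.26% of all genes), 8 in GL minus Ctrl (17.4% against 8.10%, 6 of them higher) and 2 in RL minus Ctrl (4.35% against 4.74%). Between light groups it was 13 in BL minus GL (28.3% against 14.9%, 11 of them lower), 4 in BL minus RL (8.70% against 5.14%) and 7 in GL minus RL (15.2% against 8.60%). For any difference among the 4 groups it was 9 (19.6% against 7.79%). These counts come from the fit without a term for the library set or library size. In BL and GL the light group and the library set cannot be told apart.

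H6PD, which makes NADPH inside the endoplasmic reticulum, stood at 3.80 ± 0.362, 2.78 ± 0.226, 6.04 ± 0.901 and 4.04 ± 1.33 FPKM in Ctrl, BL, GL and RL (edgeR adjusted p for any difference = 0.467). HKDC1, a further hexokinase, stood at 1.92 ± 0.133, 1.61 ± 0.219, 3.79 ± 1.11 and 1.83 ± 0.177 (edgeR adjusted p = 0.293), and its 3 GL libraries, from 2.61 to 4.81, lay above the 9 others. GYS1, glycogen synthase, stood at 8.30 ± 0.506, 8.62 ± 0.599, 10.6 ± 0.199 and 6.91 ± 0.699 (edgeR adjusted p = 0.564).

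The hypoxia pathway is a known inducer of glycolysis. All 14 of its genes looked up were tested, and 0 were called by edgeR in any comparison, with at most 1 of 14 (7.14%) at an unadjusted p below 0.05 in each, where 3.26 to 14.9% of all genes were. HIF1A, the oxygen-regulated factor itself, stood at 44.7 ± 3.71, 48.8 ± 11.9, 35.97 ± 1.73 and 50.5 ± 11.8 FPKM in Ctrl, BL, GL and RL. NDRG1, a hypoxia-induced stress gene, stood at 22.4 ± 1.41, 20.4 ± 8.74, 35.0 ± 2.89 and 30.6 ± 10.9 (edgeR adjusted p for any difference = 0.636). BNIP3, a mitophagy receptor, stood at 87.1 ± 16.1, 68.9 ± 7.29, 83.5 ± 4.63 and 65.7 ± 8.16, and DDIT4, an inhibitor of mTORC1, at 18.4 ± 7.81, 9.59 ± 2.22, 14.3 ± 3.66 and 12.6 ± 5.63.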

How the data were processed

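The genes and lists were chosen with earlier results of these data known. The authors deposited, per the file headers, 2 values for each gene in each library, an estimated count and FPKM. Per the labels' protocols RNA came from an RNeasy kit and libraries from a SMARTer mRNA-Seq kit. The submitters' processing notes name GRCm38 and mm10, a mouse build, whereas the table places genes on rabbit sequences. The aligner and counter were not given in the sources used here. Counts were whole, so rounding moved nothing, but low counts piled up at steps of about 3.81, taken as 1 fragment, so fragment numbers are approximate. FPKM had a floor of 0.0001.

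All 12 libraries entered 1 edgeR 4.0.16 quasi-likelihood fit with 4 group means, TMM scaling (0.944 to 1.06) and filterByExpr, and p-values were adjusted by Benjamini-Hochberg over 18171 genes. Of the 29076 genes, 7628 had counts of 0 throughout. All 33 genes studied passed the filter, and 32 carried the same symbol in the RefSeq table by identifier. Alternatives used limma 3.58.1, DESeq2 1.42.0, other scalings and filters, covariates, omitted libraries and summed copies. The last was chosen after seeing the data. Marker correlations used log2(CPM + 0.5), 100000 resamples and two-sided tests. Shares used exact permutation. Of these steps only the edgeR fit was tried on simulated counts, and only for GL minus Ctrl.

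By rule, all members were described by level, and values in each library were given for TKT, LDHA and, per light group and for any difference, the 3 members with the smallest unadjusted p. GAPDH, ALDOC, PKM, LDHB and others shown by library beyond that rule, and the 2 entries found by description, were chosen after their values were seen. A gene of the further pathway list is not reported here.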

Additional observations from a re-analysis of the deposited data

How the results depend on the processing

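With 25 or 26 alternatives per comparison, the number of the 33 genes called was 0 in 180 of 181 settings, and DESeq2 called 1 in BL minus GL (SLC16A3). With the replicate block the number called was 0 in every comparison, and over all genes it went from 13 to 9 in GL minus RL and by 1 or less elsewhere. Same-numbered libraries' deviations from group means correlated at −0.11 to 0.386 (median 0.0384, 18 pairs), and other-numbered ones at −0.35 to 0.295 (median −0.03, 36 pairs). Values above 0.1 were found in 6 of the 18 and 5 of the 36. The ranges overlap, and the numbers were not taken to pair libraries, though a pairing is not excluded. Over all genes the count depends on the tool: 9 in BL minus GL by edgeR, 435 by DESeq2 and 0 to 15 by other edgeR and limma fits; 10, 183 and 1 to 28 in GL minus Ctrl; 3, 36 and 1 to 7 in BL minus Ctrl; 2, 85 and 1 to 5 in RL minus Ctrl. With the library set as a covariate TKT in BL minus GL turned from −0.67 to 0.0182. The median of the 33 moved beyond the spread in 5 of 156 settings. With log2 library size it was −0.03 in GL minus Ctrl, −0.02 in BL minus GL and 0.00 in BL minus RL, and with the set 0.03 and −0.01 in the last 2. With the set it also went from −0.05 to 0.09 in BL minus Ctrl, a change of sign that stayed within the spread (0.147). Omitting 1 library left it between −0.11 and 0.01 in BL minus Ctrl, 0.04 and 0.21 in GL minus Ctrl, −0.01 and 0.21 in RL minus Ctrl, −0.24 and −0.16 in BL minus GL, and −0.05 and 0.11 in GL minus RL. The cause was not tested. The adjusted p of the ENO1 share ran from 0.00273 (without BL 2) to 0.294 on omitting 1 library. The r of TKT with keratocyte markers was 0.665 on log2(FPKM + 1), 0.572 for deviations from group means and 0.609 in the 7 libraries, none passing adjustment, and 0.669 to 0.828 on omitting 1 library, passing without BL 2, BL 3 or RL 3 only. That of LDHA with keratocyte markers was −0.0456 on log2(FPKM + 1) and −0.30 to 0.223 on omitting 1 library. That of TKT with lens markers was 0.366 for deviations and −0.45 to 0.257 on omitting 1. TKT with epithelial markers ran from 0.482 to 0.710, and LDHA with lens markers from −0.67 to −0.44, both passing only without BL 3. Counts of PDK4 and SLC16A3, with lowest values of 20 and 84, limit what depth can show for them.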
